A study of Homo sapiens with 8 samples.

Results

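The genes of the cytosolic ribosomal proteins, which build the ribosomes that translate messages from the nucleus, were described on 8 Illumina bead arrays. Members were the genes whose symbol in the platform annotation was RPL or RPS with digits and an optional A, L or X, or was RPLP0, RPLP1, RPLP2 or RPSA. This took 71 of 20046 named genes, 46 for proteins of the large subunit and 25 for the small, with 117 probes. Of these probes 112 were above background, in 68 genes, and each of the 112 was above background on all 8 arrays. The other 5 were both probes of RPL10, 1 of RPL36A, and the only probes of RPL10L and RPL3L, which are copies with tissue-restricted expression. RPLP0, RPSA and RPS27A were not analysed here.

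RNA came from DOHH2, an established line of human B-cell lymphoma cells grown in vitro. The cells received BAY1238097, a small molecule that keeps BET proteins from binding acetylated chromatin, or DMSO, its vehicle. Each treatment had 1 array at 4, 8, 12 and 24 h, that is 4 arrays per group. The sources used here do not give the dose. The labels name 1 cell line and do not say whether arrays came from separate cultures, so p-values measure the spread over the times of a single course, which may be partly technical, and the number of arrays limits the precision. Mean probe intensity per array ran from 262 to 366 with BAY1238097 and from 264 to 419 in DMSO, lowest at 4 h in both groups. Of 5 B-cell marker genes measured, 4 passed the background filter: CD79B with 3 probes on all 8 arrays, CD79A with 2 probes on 8 arrays and 1 on 6, MS4A1 with 1 of 3 probes on 6 arrays and CD22 on 5. PAX5 was above background on 0 arrays. None of 3 T-cell and none of 3 epithelial marker genes passed, and of 3 myeloid genes CD14 did, with 1 of its probes on 4 arrays.

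Each ribosome holds a single copy of nearly every ribosomal protein, and cells make them in step with ribosomal RNA. Their messages are short, abundant and long-lived, and most start with a cytosine followed by an unbroken stretch of pyrimidines, the 5′ terminal oligopyrimidine (TOP) motif, through which mTOR and LARP1 control their translation. MYC, whose gene depends on BET proteins in many lymphomas, raises ribosomal protein genes and ribosome assembly factors in B cells. Many of these genes also have processed pseudogenes, copies of the message that were written back into the genome and can resemble it closely.

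The start sites below are shown because most member windows hold pyrimidines over the start, while treatment changes differ between members. Each is the RefSeq stretch of 60 bases before and 20 bases from the start site (GRCh38.p14), in lower case, with the unbroken run of C and T that holds the start base in capitals. The first 5 belong to genes with a probe that fell with BAY1238097.
RPL29: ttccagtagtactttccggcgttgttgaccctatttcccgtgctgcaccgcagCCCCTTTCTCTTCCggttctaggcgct
RPL36A: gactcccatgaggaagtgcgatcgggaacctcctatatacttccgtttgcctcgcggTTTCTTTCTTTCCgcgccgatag
RPS7: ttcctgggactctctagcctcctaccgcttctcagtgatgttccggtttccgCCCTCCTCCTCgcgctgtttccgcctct
RPS24: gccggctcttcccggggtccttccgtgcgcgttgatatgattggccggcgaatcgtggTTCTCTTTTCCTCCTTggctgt
RPS26: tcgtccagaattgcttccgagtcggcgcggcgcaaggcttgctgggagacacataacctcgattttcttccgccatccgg
The next 3 belong to genes with a probe that rose, and RPL11 and RPS6 to genes with no probe past the threshold.
RPS23: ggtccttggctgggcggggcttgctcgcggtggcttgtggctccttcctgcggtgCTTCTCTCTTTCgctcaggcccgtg
RPLP1: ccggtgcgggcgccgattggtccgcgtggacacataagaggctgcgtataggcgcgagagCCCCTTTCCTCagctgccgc
RPL7A: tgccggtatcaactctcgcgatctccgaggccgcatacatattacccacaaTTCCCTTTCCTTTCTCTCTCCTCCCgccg
RPL11: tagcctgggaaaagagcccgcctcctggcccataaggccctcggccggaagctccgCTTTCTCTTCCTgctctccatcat
RPS6: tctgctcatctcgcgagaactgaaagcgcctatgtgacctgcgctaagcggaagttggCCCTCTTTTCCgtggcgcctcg
The windows lie at RPL29 chr3:51995876-51995955 on the minus strand, RPL36A chrX:101390951-101391030 on the plus strand, RPS7 chr2:3575200-3575279 on the plus strand, RPS24 chr10:78033803-78033882 on the plus strand and RPS26 chr12:56041858-56041937 on the plus strand for the first group. Those of the second group lie at RPS23 chr5:82278335-82278414 on the minus strand, RPLP1 chr15:69452758-69452837 on the plus strand, RPL7A chr9:133348158-133348237 on the plus strand, RPL11 chr1:23691746-23691825 on the plus strand and RPS6 chr9:19380217-19380296 on the minus strand; for RPL11 the second of its RefSeq starts is shown.

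The run was counted on both sides of the start base, so its length is not that of the TOP motif. In RPL29, RPL36A, RPS7 and RPS24 the run was 14, 13, 11 and 16 bases long. In RPS23, RPLP1 and RPL7A it was 12, 11 and 25 bases long, and in RPL11 and RPS6 it was 12 and 11. RPS26 has no run that holds the start base. Its annotated start base is G, with a stretch of C and T soon after it. Among windows not shown, those of RPS29 and RPS15 have a run of 2 bases, the RPL6 starts have runs of 1 and 0, and the RPL13 starts 4, 10 and 0. The other RPL11 start also has none. A start window in the RefSeq table was found for 59 of the 71 genes, 70 windows in all. A run of at least 5 C or T over the start base was present in 67.1% of them, against 9.6% of 35116 windows over all genes, and a run of at least 8 in 42 of the 70, against 4.7% of all. The start base was C in 68.6%, against 14.7%. Over the 250 bases before and 50 after the start, on both strands, CCGGAAG, the core bound by ETS factors, was in 35.7% of member windows and 10.3% of all. The E-box CACGTG, the MYC and MAX site, was in 5.7% and 7.3%, and the TATA element TATAAA in 7.1% and 11.5%. The motifs were counted in overlapping windows where a gene has several starts, and a match is a description of the letters only.

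With BAY1238097 most ribosomal protein probes moved little, while a small number moved far. Values are deposited log2 values, and changes are BAY1238097 minus DMSO on that scale with the time point in the fit. The ± marks the standard error of the limma fit, whose variance is drawn partly from all probes or pairs tested. A probe was called where limma's adjusted p, taken over all 18640 probes above background, was under 0.05. Of the 112 member probes, 5 were higher and 11 lower with BAY1238097, in 5 and 8 genes. That is 14.3% of them, against 25.5% of all probes tested, and by direction 12.7% of all probes were higher and 12.8% lower. In size, 90 of the 112 member changes were under 0.25. The median change was 0.02 over members and 0.01 over all probes, with 68 member changes positive and 44 negative. The balance depended on the scaling. With median scaling in place of the quantile step, 22 member probes were higher and 12 lower, with medians of 0.18 over members and 0.05 over all probes. Of all 18640 probes 2514 were then higher and 2678 lower. With background correction and median scaling 18 member probes were higher and 14 lower, with medians of 0.19 and 0.06. Of all probes 2717 were higher and 2765 lower under that scaling. RPL29, RPS7, RPL36A and RPS26 stayed called as lower under both. Member probes are mostly bright, and bright probes of other genes were not set beside them under these scalings. The part of signal level in the shifted medians was not tested. In the deposited values large-subunit probes gave 3 higher and 7 lower of 69, and small-subunit probes 2 higher and 4 lower of 43. The number of calls rested on the arrays of single times: without the 8 h arrays 1 member probe was called, that of RPS26, and without the 12 h arrays 2, those of RPS26 and RPS23. The count was 7 without the 24 h arrays and 24 without the 4 h arrays. The share of all probes called without a time was not set beside these member counts, and fewer arrays lower the precision for every probe. RNA per cell and the number of cells cannot be told apart in such bulk samples.

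The calls went with signal level, the mean log2 value of a probe over the 8 arrays, in bands chosen after the values were seen. A level is a property of a probe as much as of its message, so levels do not rank the genes by abundance. Of 60 member probes at 13 and over, 0 were called by limma and 2 had an unadjusted p under 0.05. Over all probes in that band 1.59% were called. One of 14 was called at 12 to 13, against 24.5% of all probes there. At 10 to 12, 6 of 17 were called (36.6% of all), at 8 to 10, 8 of 11 (38.9%), and under 8, 1 of 10 (17.5%). Each of these 4 bands holds under 20 member probes. At 13 and over the changes of member probes had an SD of 0.07 and those of all probes 0.10. The brightest probe on each array read 15427 to 16600, and the median member probe lay at the 99.4th percentile of its array. How far this nearness to the top of the scale shaped the changes was not tested.

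**Figure D1:**
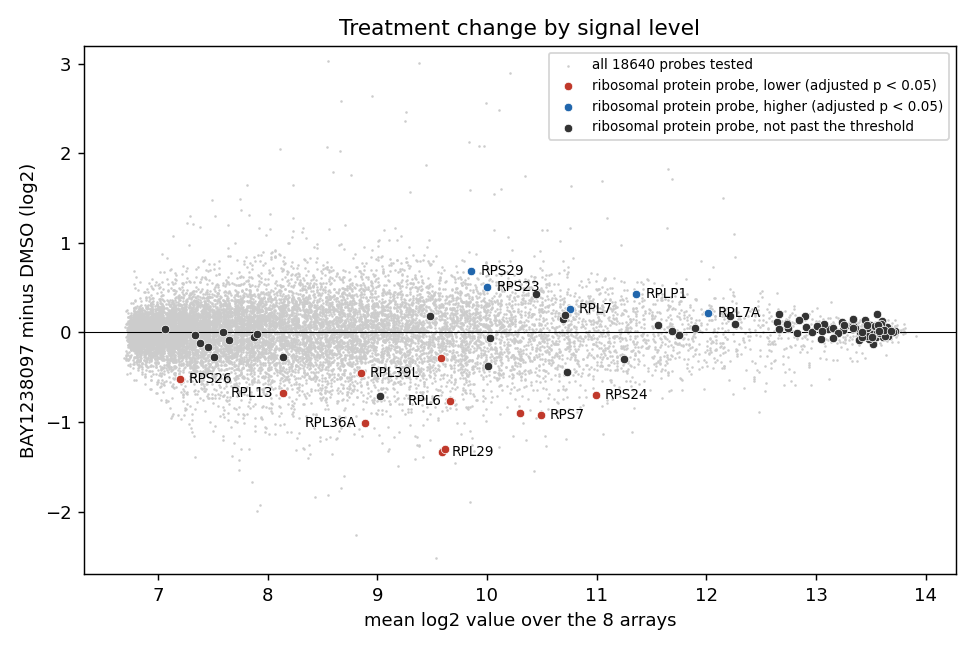
Treatment change (log2, BAY1238097 minus DMSO) of each probe against its mean log2 value over 8 arrays, for 112 ribosomal protein probes and all 18640 probes tested (grey). The 60 ribosomal protein probes at 13 and over lie close to 0, and the 16 called probes (red lower, blue higher) lie below that level.

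RPL29, a small basic protein of the large subunit, had the largest fall of all members. Its probe ILMN_1771051 read 9.04, 8.998, 9.23 and 8.61 at 4, 8, 12 and 24 h with BAY1238097, against 9.35, 10.26, 10.91 and 10.55 in DMSO. Every treated value lay below every DMSO value. The gap opened after 4 h, when the DMSO series climbed and the treated series stayed near its start. The change was -1.30 ± 0.25, 2.46-fold lower (limma adjusted p = 0.0123). The other probe, ILMN_1737517, gave -1.33 ± 0.26 (adjusted p = 0.0126), with treated values of 8.65 to 9.15 and DMSO values of 9.32 to 10.94.

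RPL36A, which sits where transfer RNA leaves the ribosome, was 2.01-fold lower by its measured probe. It read 8.66, 8.40, 8.44 and 8.05 with BAY1238097, against 8.94, 9.11, 9.82 and 9.72 in DMSO, again without overlap. The change was -1.01 ± 0.22 (limma adjusted p = 0.0193). The gene's other probe was not above background, so this fall rests on 1 probe.

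RPL39L is a copy of RPL39, a protein of the peptide exit tunnel, that is best known from testis. Both of its probes were lower, by 0.46 ± 0.12 and 0.28 ± 0.08 in size (limma adjusted p = 0.0318 and 0.0455). Probe ILMN_1712413 read 8.67, 8.60, 8.68 and 8.54 with BAY1238097, against 8.81, 8.93, 9.16 and 9.41 in DMSO. The groups did not overlap, the treated values hardly moved and the DMSO values increased at each time. RPL39 itself changed by -0.08 ± 0.06 (adjusted p = 0.427).

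RPL6 and RPL13, which bind the ribosomal RNA of the large subunit, each had 1 low-signal probe that fell beside brighter ones that did not. RPL6 probe ILMN_1717490 read 9.60, 9.52, 9.31 and 8.70 with BAY1238097, against 9.68, 10.10, 10.36 and 10.06 in DMSO, a change of -0.77 ± 0.19 (limma adjusted p = 0.0308). Its other probes changed by 0.06 and -0.05. RPL13 probe ILMN_1709039 read 7.97, 7.87, 7.89 and 7.46 with BAY1238097, against 7.97, 8.55, 8.85 and 8.53 in DMSO, a change of -0.68 ± 0.17 (adjusted p = 0.0287), and its other probe changed by 0.15. In both probes the groups did not overlap, the 4 h arrays were nearly level and the separation came later.

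The large-subunit probes that rose moved less than the called probes of RPL29, RPL36A, RPL6 and RPL13, though not all moved less than those of RPL39L. RPL7 rose by 0.26 ± 0.07 and RPL7A by 0.21 ± 0.06 (limma adjusted p = 0.0374 and 0.0363), each with 1 probe. RPL7 read 11.02, 11.01, 10.76 and 10.76 with BAY1238097, against 10.95, 10.66, 10.38 and 10.52 in DMSO, so the groups overlapped although the treated array was higher at each time. RPLP1, an acidic protein of the stalk that recruits translation factors, rose by 0.43 ± 0.10 at its dimmest probe (adjusted p = 0.0256). That probe read 11.88, 11.35, 11.40 and 11.68 with BAY1238097, against 11.63, 11.15, 10.90 and 10.91 in DMSO, higher at each time and overlapping. Its brighter probes changed by 0.07 and 0.10, and RPLP2, its partner in the stalk, by -0.05 ± 0.07. RPL14 probe ILMN_1726460 changed by 0.43 ± 0.13 without passing (adjusted p = 0.0528). Its arrays read the same at 4 h, 10.98 each, and 10.33, 10.50 and 10.84 later with BAY1238097, against 10.03, 9.84 and 10.07 in DMSO.

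In the small subunit RPS7, which is needed to process the small ribosomal RNA and also binds MDM2, fell by both probes. Probe ILMN_1750722 read 10.17, 9.97, 10.17 and 9.80 with BAY1238097, against 10.34, 10.83, 11.46 and 11.19 in DMSO. No treated value reached the lowest DMSO value. The changes were -0.93 ± 0.19 and -0.90 ± 0.20 (limma adjusted p = 0.0165 and 0.0210), the first 1.90-fold lower.

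RPS26, which lines the channel where the message leaves the small subunit, had the smallest adjusted p of all members. Probe ILMN_1755664 read 6.95, 6.97, 6.94 and 6.89 with BAY1238097, against 7.21, 7.55, 7.57 and 7.52 in DMSO. The change was -0.53 ± 0.08, 1.44-fold lower (limma adjusted p = 0.00638), and it stayed called in 13 of 13 alternatives that held this probe. The setting with 1 probe per gene used the brighter probe of RPS26 instead. The recomputed quantile step repeats the deposited values, so it could not lose the call. ILMN_1755664 is a dim probe, with a level of 7.20 against an array median of 6.67. Folds of dim probes are compressed because no background was subtracted. The gene's bright probe, ILMN_2209027, changed by 0.05 ± 0.08.

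RPS24, whose message is spliced into forms with different ends, showed the same split. Probe ILMN_2399893 read 10.83, 10.55, 10.81 and 10.37 with BAY1238097, against 10.72, 11.31, 11.76 and 11.58 in DMSO. The treated array was slightly higher at 4 h and lower at each later time, and the change was -0.70 ± 0.20 (limma adjusted p = 0.0437). The brighter probe ILMN_1656625 changed by 0.08 ± 0.06. RPS15, a protein of the head of the small subunit, had a probe with nearly the same change, -0.70 ± 0.22, that did not pass (ILMN_2219131, adjusted p = 0.0607), beside probes at -0.04 and 0.12.

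RPS29 and RPS23 were the members of the small subunit that rose. RPS29, a zinc-binding protein of the head, rose at probe ILMN_2298818, which read 10.10, 10.28, 10.27 and 10.16 with BAY1238097, against 9.79, 9.09, 9.40 and 9.78 in DMSO. It was the only member probe whose treated values all lay above its DMSO values, and it changed by 0.69 ± 0.15, 1.61-fold higher (limma adjusted p = 0.0186). Its 3 brighter probes changed by 0.01 to 0.09. RPS23, which borders the decoding centre, rose by 0.51 ± 0.10 with its only probe (adjusted p = 0.0149). It read 9.84, 10.26, 10.38 and 10.54 with BAY1238097, against 9.25, 9.44, 10.15 and 10.16 in DMSO, climbing in both groups and overlapping, with the treated array higher at each time.

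**Figure D2:**
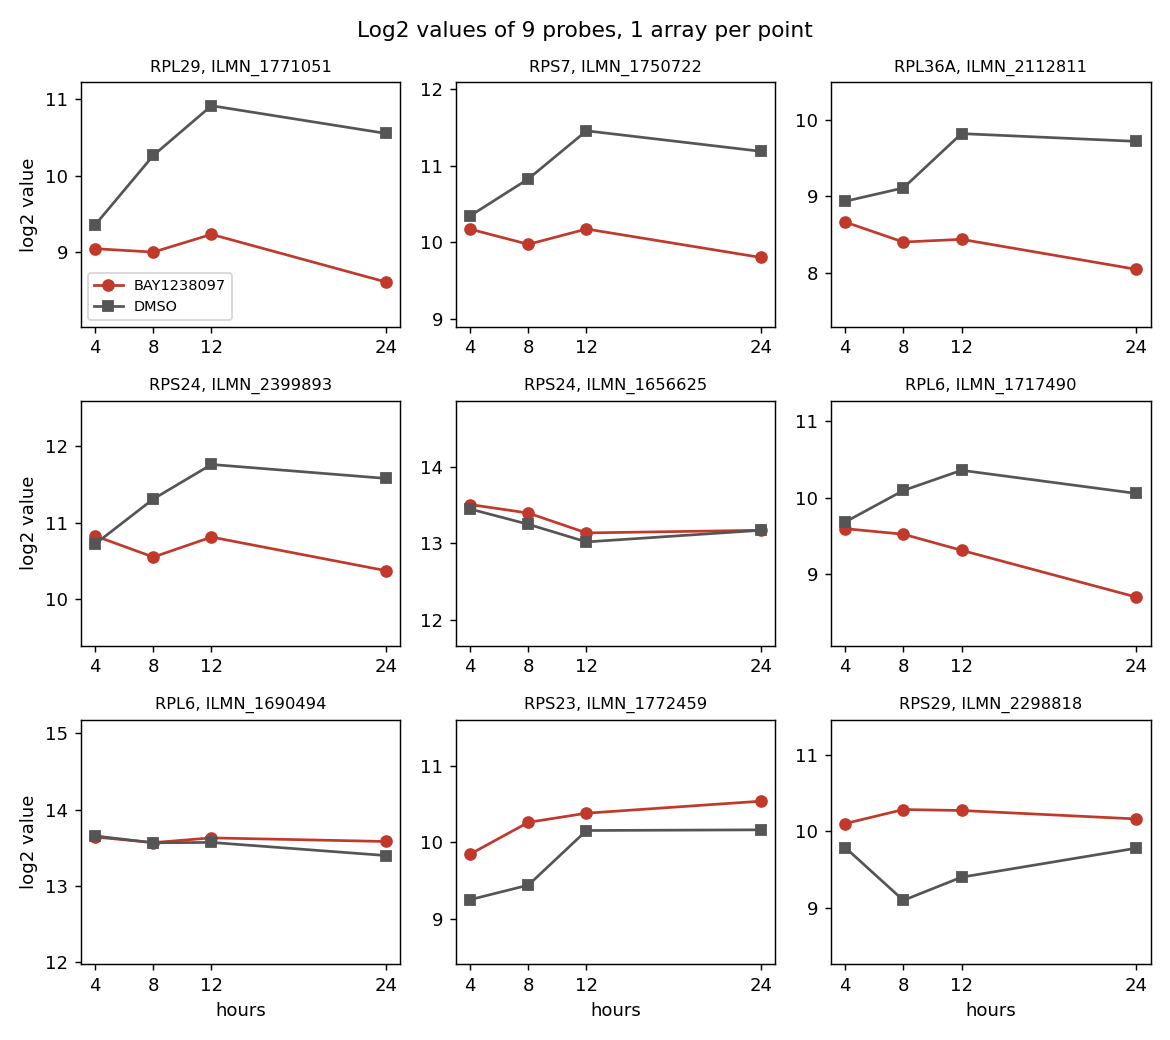
Deposited log2 value of 9 ribosomal protein probes at 4, 8, 12 and 24 h, with BAY1238097 in red and DMSO in grey, 1 array per point and the same span on each vertical axis. RPL29, RPS7, RPL36A, RPS24 (ILMN_2399893) and RPL6 (ILMN_1717490) separate after 4 h as DMSO climbs, while the bright probes of RPS24 and RPL6 stay together.

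Other members known for roles beyond bulk translation did not pass. RPL5 and RPL11, which with the smallest ribosomal RNA bind MDM2 and stabilise p53, changed by 0.04 ± 0.06 for RPL5 and by 0.05 ± 0.07 and 0.07 ± 0.10 for the RPL11 probes. RPS6, the target of S6 kinases, changed by 0.01 ± 0.07 and 0.15 ± 0.06, with values of 13.55, 13.68, 13.74 and 13.79 with BAY1238097 against 13.67, 13.79, 13.59 and 13.65 in DMSO for its brighter probe. RPS19, the gene most often mutated in Diamond-Blackfan anaemia, changed by -0.003 ± 0.06. Of 18 genes of that disease with 31 probes, 1 probe was higher and 4 lower, where 25.5% of all probes were called, the genes being RPS29 above and RPS7, RPS24 and RPS26 below. Of 10 probes of tunnel and exit proteins and 4 of proteins near the peptidyl transferase centre, 0 were called by limma, and 1 and 0 had an unadjusted p under 0.05. The brightest members, RPL41, RPS12 and RPS6, with levels of 13.72, 13.70 and 13.68, changed by 0.02, 0.01 and 0.01. The dimmest, besides RPS26, were RPL37 and RPL32 probes with levels of 7.07 and 7.34, and changes of 0.04 and -0.03.

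On the deposited, quantile-normalised values the middle of the family stayed in place over time and its edges spread. For 4, 8, 12 and 24 h the member probes had median differences of 0.0058, 0.0147, 0.0067 and 0.0065. Before normalization these medians were 0.01, -0.06, -0.03 and -0.12, against -0.002, -0.21, -0.21 and -0.26 over all probes. The middle of the family thus lay above that of all probes from 8 h on. Member probes are mostly bright, and bright probes of other genes were not set beside them. The part of signal level in this gap was not tested. The SD of the normalised differences across member probes was 0.13, 0.33, 0.43 and 0.49 at these times, while over all probes it was 0.32, 0.34, 0.34 and 0.37. With 1 array per treatment and time these differences have no replicate check. At 4 h 1 member probe was higher by at least 0.5 (4.5% of all probes), that of RPS23, and 0 were lower (5.13%). At 8 h 2 were higher and 10 lower (4.8% and 6.35% of all), at 12 h 2 and 13 (5.11% and 6.13%), and at 24 h 2 and 15 (7.32% and 7.83%). A difference of at least 1 was reached by 0 member probes at 4 h, where 0.622% of all probes were higher and 0.585% lower by as much. At 8 h 1 was higher and 2 lower (0.51% and 0.998% of all), and at 12 h 0 and 6 (0.472% and 0.891%). At 24 h 0 were higher and 9 lower (0.789% and 1.38%), the lowest at -1.94. Over the whole course 10 member probes had every treated value below every DMSO value (8.96% of all probes) and 1 the reverse (8.87%).

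**Figure D3:**
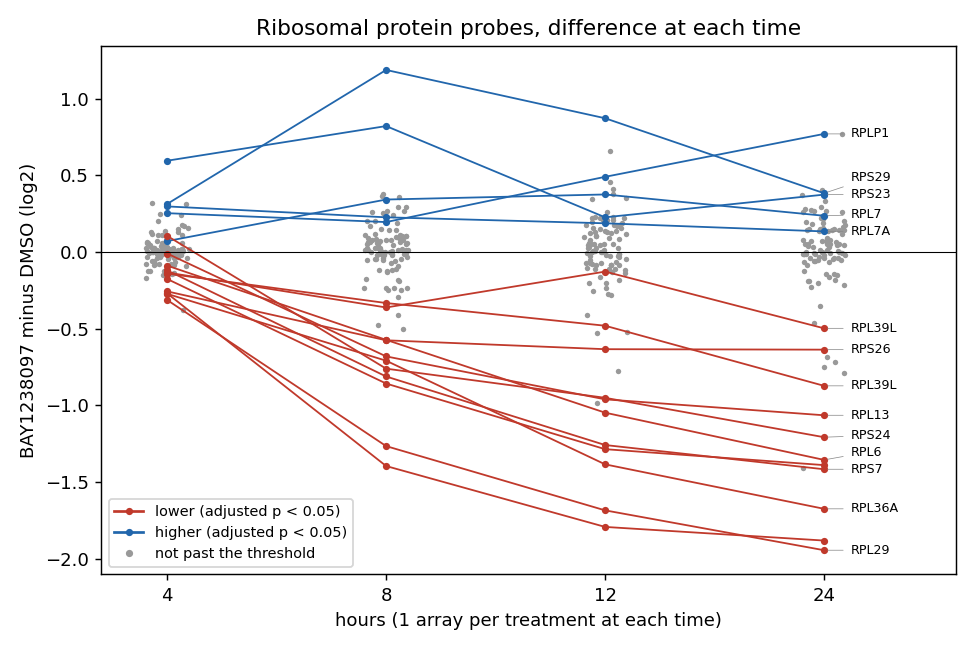
Difference of BAY1238097 minus DMSO (log2) at 4, 8, 12 and 24 h for each of the 112 ribosomal protein probes, with called probes as lines (red lower, blue higher) and the others as grey points. The red lines start between -0.31 and 0.11 at 4 h and end between -0.50 and -1.94 at 24 h.

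The widening was tested as the change of the treatment difference per doubling of hours. Of the 112 member probes 9 passed, all negative, while 3.06% of all probes passed, 1.43% negative and 1.63% positive. The 9 belonged to RPL29, RPS7, RPL36A, RPL6, RPL13, RPS24 and RPS15. By unadjusted p under 0.05 in the same limma fit, 17 member probes were negative and 6 positive. RPL29 probe ILMN_1771051 gave -0.64 per doubling (limma adjusted p = 0.0283) and RPS15 probe ILMN_2219131 gave -0.59 (adjusted p = 0.0249). RPL36A gave -0.57 and RPS7 -0.48 and -0.51. With no time factor 0 passed (12 by unadjusted p), and with array weights 0 (20 by unadjusted p). Without the 12 h arrays 5 passed, without the 8 h arrays 15 and without the 24 h arrays 14. The shares of all probes under these settings were not set beside these member counts.

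In RPL29, RPS7 and RPS24 the later values of the falling probes differed from 4 h more in DMSO than with BAY1238097. The mean of the 8, 12 and 24 h arrays minus the 4 h array was -0.10 with BAY1238097 and 1.22 in DMSO for RPL29 probe ILMN_1771051. It was -0.19 with BAY1238097 and 0.81 in DMSO for RPS7 probe ILMN_1750722, and -0.25 and 0.83 for the called RPS24 probe. RPL36A gave -0.37 with BAY1238097 and 0.62 in DMSO, while RPL6 probe ILMN_1717490 gave -0.42 and 0.49, similar in size and opposite in direction. The slope over time in DMSO alone did not pass for these probes (adjusted p = 0.0952 for RPL29, 0.0857 for RPS7, 0.0623 for RPL36A, 0.0821 for RPS24 and 0.332 for RPL6). RPL39L probe ILMN_1712413 did pass, at 0.24 per doubling in DMSO (limma adjusted p = 0.0417), against -0.04 with BAY1238097 (adjusted p = 0.594). RPL14 probe ILMN_1726460 ran the other way, with -0.43 with BAY1238097 and -1.003 in DMSO. The 4 h arrays were also the dimmest before normalization, and the part of that brightness in these shifts was not tested.

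A slope over time common to both treatments passed in 15 member probes, 12 rising and 3 falling, where 19.1% of all probes passed, 9.99% rising and 9.07% falling. The largest was in RPS4X, the X-linked protein of the small subunit, whose probe ILMN_2166831 read 11.60, 12.09, 12.70 and 12.84 with BAY1238097 and 11.29, 11.85, 12.77 and 12.61 in DMSO. It rose by 0.53 ± 0.09 per doubling (limma adjusted p = 0.00865). RPL10A probe ILMN_1808041 rose by 0.36 ± 0.05, RPS23 by 0.33 ± 0.06 and RPL9 probe ILMN_1729033 by 0.23 ± 0.05. RPL9 probe ILMN_2408415 fell by 0.25 per doubling, RPL23 by 0.15 and RPS3A by 0.14, so probes of RPL9 had opposite slopes. These directions depend on the scaling, since median scaling gave 6 rising and 43 falling member probes. Without the 4 h arrays 0 passed (limma, 10 by unadjusted p), without the 8 h arrays 5, without the 12 h arrays 7 and without the 24 h arrays 28. The shares of all probes with such slopes, under median scaling or without a time, were not set beside these member counts. A shift of the whole array therefore cannot be told apart here.

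Several probes of a gene could be set against each other in 32 member genes. In each, the brightest probe was paired with each other probe, giving 44 pairs, and the treatment change of their log2 difference was tested. It passed in 5 pairs, 11.4%, against 12.4% of 3423 pairs over all genes. The brightest probe minus the other gave 0.82 ± 0.19 in RPL6 and in RPL13, 0.78 ± 0.17 in RPS24, 0.57 ± 0.12 in RPS26 and -0.66 ± 0.12 in RPS29 (limma adjusted p = 0.0249, 0.0219, 0.0213, 0.0158 and 0.00983). Both probes changed in the same direction in 56.8% of member pairs and 79.2% of all pairs. With both levels at 12 or over, a limit chosen after the values were seen, 0 of 21 member pairs were called by limma, 3 had an unadjusted p under 0.05, and the median gap was 0.06. Over all genes 1 of 58 such pairs was called, 1.72%. With the dimmer probe under 12, 5 of 23 were called, against 12.6% over all genes. Without the 8 h arrays or without the 12 h arrays 0 of the 44 pairs were called (10 and 9 by unadjusted p), and without the 4 h arrays 13 were. The share of all pairs called without a time was not set beside these counts.

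Agreement did not require a high level. The probes of RPL29 differed by 0.03 in their change, those of RPS7 by 0.03 and those of RPL34 by 0.07. RPL34 probes changed by -0.44 and -0.37 without passing (adjusted p = 0.0828 and 0.104). The widest ranges between probes of a gene were 0.83 in RPS15, 0.82 in RPL6 and RPL13, 0.78 in RPS24 and 0.68 in RPS29. In RPS24 the disagreeing probes carry different RefSeq transcripts in the annotation, while in RPL6, RPL13, RPS15 and RPS26 the same one is listed. In RPS29 the rising probe ILMN_2298818 shares its listed transcript with ILMN_2415722, which changed by 0.09, and the remaining probes list another. Of the 9 called genes with at least 2 measured probes, all probes were called in RPL29, RPS7 and RPL39L, and only some in the other 6. RPL36A, RPS23, RPL7 and RPL7A had 1 measured probe. Whether a probe also reads a pseudogene copy was not tested, since probe sequences were not used here. RefSeq names 34 such copies for RPL29, 15 for RPS7, 59 for RPS26 and 0 for RPL39L. The median was 26 over 8 genes with a fall, 33 over 5 genes with a rise and 14 over 55 genes with neither. The ranges overlapped, at 0 to 59, 10 to 80 and 4 to 137.

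**Figure D4:**
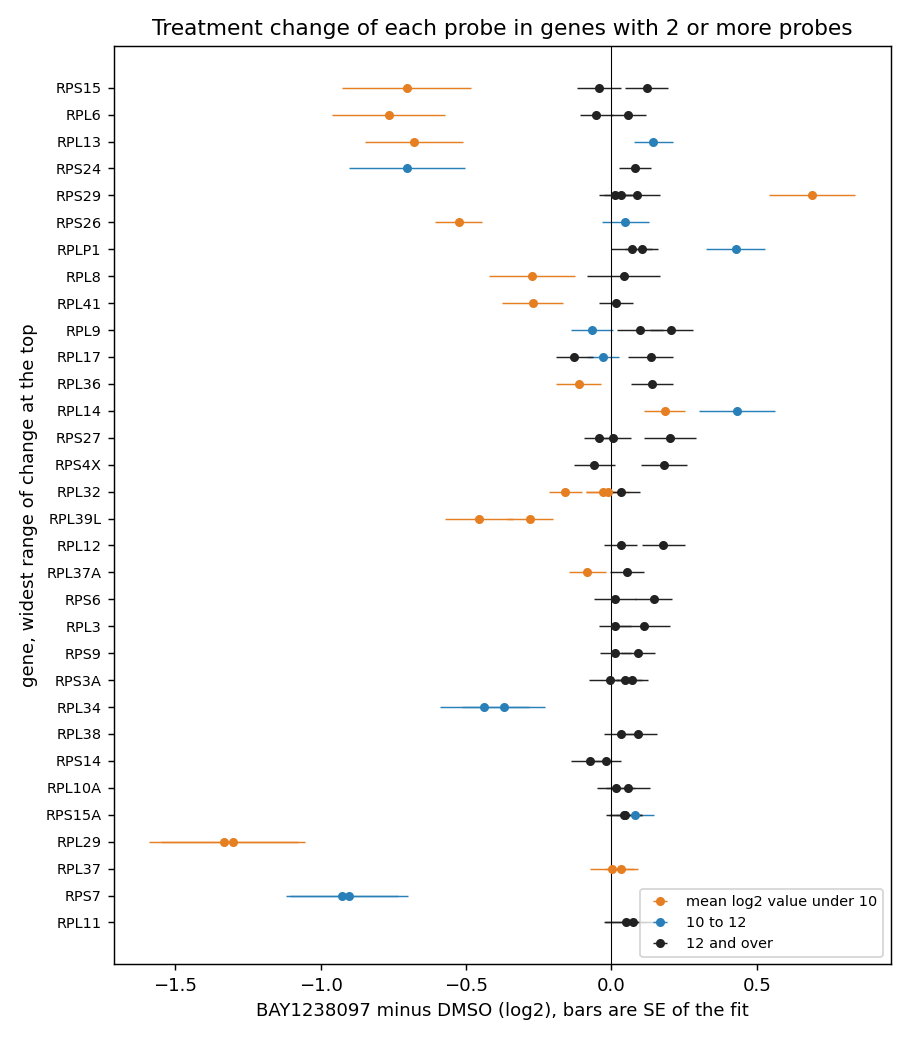
Treatment change (log2, BAY1238097 minus DMSO, bars are SE) of each measured probe in the 32 ribosomal protein genes with 2 or more, coloured by mean log2 value. In RPS15, RPL6, RPL13, RPS24, RPS29 and RPS26 a dimmer probe stands apart from brighter probes near 0, while in RPL29 and RPS7 both probes changed together.

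The mitochondrial ribosomal proteins, set beside the cytosolic ones as the nearest family, moved mostly one way. Of 105 probes in 76 genes, 2 were higher and 40 lower, 40% called against 25.5% of all probes, with a median of -0.20, against 5 higher and 11 lower of 112 cytosolic probes with a median of 0.02. No test of the difference between these families was made, and their probes were not matched for signal level. Of the cytosolic probes 60 lay at 13 and over, where 1.59% of all probes were called.

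Genes that work with ribosomal proteins were taken from lists chosen with earlier results of these data known. Of 25 probes for dedicated chaperones and importers of ribosomal proteins, 0 were higher and 9 lower by limma (1 and 13 by unadjusted p; 12.7% and 12.8% of all probes called), in 7 of 16 genes, with a list median of -0.20. BCCIP, a chaperone of RPL23, had probes at -0.75 ± 0.08, -0.65 ± 0.05 and -0.33 ± 0.07 that passed (limma adjusted p = 0.00213 for the first) and another at -0.33 ± 0.12 that did not (adjusted p = 0.0954). PDCD2L, which binds RPS2, was at -0.74 ± 0.06 (limma adjusted p = 0.00109). LTV1, an assembly factor of the small subunit, was at -0.49 ± 0.07, RPS19BP1 at -0.40 ± 0.09 and GRWD1, a chaperone of RPL3, at -0.33 ± 0.05. TNPO1, an importer, was at -0.37 ± 0.06 at its dimmest measured probe, while its brighter ones changed by -0.04 and -0.12 without passing. IPO5, another importer, changed by -0.50 ± 0.24 without passing (limma adjusted p = 0.18), with differences of 0.50 at 4 h and -1.08 at 8 h. IPO9 had the largest rise of this list, 0.20 ± 0.08, which did not pass (limma adjusted p = 0.128). The RPL23 probe changed by 0.05 ± 0.06, that of RPS2 by -0.05 ± 0.07 and those of RPL3 by 0.01 ± 0.05 and 0.11 ± 0.09, and none of them passed.

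Among other genes whose messages carry the TOP motif, 5 of 38 probes were higher and 4 lower, where 12.7% of all probes were higher and 12.8% lower. HNRNPA1, a splicing protein, was at -1.14 ± 0.09 at 1 probe (limma adjusted p = 0.00111) and at -0.29 ± 0.09 at the other, which did not pass (adjusted p = 0.0628). EEF1B2 had 1 of 5 probes past the threshold, at -0.37 ± 0.07 (limma adjusted p = 0.0110), while the others changed by -0.06 to -0.16. Both measured probes of EEF1D, an exchange factor of elongation, were at 0.54 (limma adjusted p = 0.00439 and 0.00572). The vimentin gene VIM was higher by 0.55 and 0.49. Of 26 probes for regulators of TOP messages and S6 kinases, 5 were higher and 4 lower (12.7% and 12.8% of all probes). EIF4EBP2, which holds back the cap-binding factor, was higher by 0.62 ± 0.12, and the RNA-binding protein HNRNPD was at -0.62 ± 0.08 and -0.57 ± 0.09. CNBP, another, was at -0.47 ± 0.06 and -0.40 ± 0.06 at probes that passed and at -0.20 ± 0.07 at one that did not (adjusted p = 0.0685). LARP1B was higher by 0.48 ± 0.08 at a probe (limma adjusted p = 0.00967), while its others changed by -0.43, -0.20 and -0.06 without passing. TIA1 was higher by 0.41 and 0.23 at probes that passed and by 0.33 at another that did not (limma adjusted p = 0.0635). RPS6KB2 was higher by 0.25 at a probe that passed and by 0.06 at the other. Ribosomal protein genes outside the naming rule, which are paralogs and FAU, the gene of RPS30, gave 0 higher and 3 lower of 10 probes (0 and 4 by unadjusted p), where 12.7% of all probes were higher and 12.8% lower. The 3 were a probe of RPL7L1 at -0.34, a probe of RPL26L1 at -0.28 and RPS27L, a p53 target, at -0.20. The brighter RPL7L1 probe changed by 0.02 (limma adjusted p = 0.930) and the other RPL26L1 probe by -0.17 (adjusted p = 0.0721). RPL22L1 changed by -0.305 ± 0.137 without passing (limma adjusted p = 0.153).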

How the data were processed

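RNA of DOHH2 cells was labelled as biotin cRNA for Illumina arrays, per the labels' protocols. The authors deposited 1 linear intensity per probe for 47231 probes, and a table of log2 values. Quantile normalization of log2 intensities, recomputed here, matched the deposited log2 values within 0.00126, so these carry no background correction. The sources used here do not name the scanner software. Genes came from the platform annotation: 30113 probes had 1 symbol, 8 several and 17110 none.

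The planned detection p-values were absent. A probe was kept where fewer than 5% of 437 olfactory receptor probes were as bright on at least 4 of 8 arrays, which kept 18640. Tests used limma 3.58.1 in R 4.3.3 (lmFit, eBayes) on the deposited log2 values with Benjamini-Hochberg adjustment over all probes tested and a threshold of 0.05. The treatment effect had the time point as a factor. Arrays of a time were treated as a matched pair, because the labels give each time 1 array of each treatment. Deviations from the group means correlated within a time at 0.60, 0.40, 0.67 and 0.48 for 4, 8, 12 and 24 h. The highest correlation of each BAY1238097 array with a DMSO array of another time was 0.18, 0.12, 0.52 and 0.31. Treatment by time used centred log2 hours, and time slopes a model with treatment and log2 hours. Figures were drawn with matplotlib 3.10.9 in Python 3.11.15. RefSeq start sites are those of GRCh38.p14.

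Named members were those called, the 6 largest rises and falls, the 3 brightest and dimmest, those with discordant probes, the 4 largest time coefficients each way, and members with known roles. RPS19, RPL39, RPL34, RPL3, RPS2 and the list genes beyond the 4 largest changes were named outside that rule, after their values were seen. Members and lists were chosen with earlier results of these data known. Simulated data had 18640 probes with independent noise, and no shared array shifts or time effects beyond those added, unlike these data. Changes of 0.5 and 1 were recovered in 54% and 85% for treatment. Changes of 0.5 and 1 per doubling of hours were recovered in 11% and 75% for treatment by time, and 96% and 100% for the slope. False calls were 6.08%, 2.27% and 4.39%.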

Additional observations from a re-analysis of the deposited data

Results flagged for a closer look

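In 2 of the 34 groups of 4 arrays checked, 1 array lay far from the other 3. By chance the limit used is passed in about 1 in 20 groups of like replicates. Each group here is a time course, so that rate does not apply. The RPS26 probe ILMN_1755664 read 7.21 in DMSO at 4 h, against 7.52 to 7.57 on the other DMSO arrays. The RPL39L probe ILMN_2108357 read 9.87 in DMSO at 24 h, against 9.66 to 9.69.

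The treatment difference changed with time, by the test of treatment by log2 hours, in 9 probes. Per doubling of hours the difference of BAY1238097 minus DMSO changed by -0.64 and -0.63 for the RPL29 probes (limma adjusted p = 0.0283 and 0.0404). It changed by -0.59 for RPS15 probe ILMN_2219131 (adjusted p = 0.0249), by -0.57 for RPL36A (0.0275) and by -0.51 for RPL6 probe ILMN_1717490 (0.0261). The RPS7 probes gave -0.51 and -0.48 (0.0305 and 0.0349), RPS24 probe ILMN_2399893 gave -0.50 (0.0328) and RPL13 probe ILMN_1709039 gave -0.41 (0.0427).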

How the results depend on the processing

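Median scaling, normexp with median scaling, array weights and 1 probe per gene gave 34, 32, 34 and 8 treatment calls in place of 16, and leaving out 1 time gave 1 to 24. The 9 calls of treatment by time became 14 under normexp with median scaling, 0 with array weights (20 by unadjusted p), 3 with 1 probe per gene and 5 to 15 without 1 time. The 15 time slopes became 49 and 52 under median scaling without and with normexp, 6 with array weights, 7 with 1 probe per gene, 2 in BAY1238097 alone and 5 in DMSO alone, and 0 to 28 without 1 time. The 5 differing probe pairs became 8 and 9 under these scalings, 15 with array weights and 0 to 13 without 1 time. The median change of 0.0175 became 0.1775 and 0.1859 under these scalings, 0.0267 with array weights and 0.0122 to 0.0268 without 1 time. With a limit of 1 in place of 0.5, 0, 3, 6 and 9 probes passed at 4, 8, 12 and 24 h. For single probes and pairs, 414 of 587 alternative values stayed on their side of the threshold, 173 lost the call and 0 reversed. These include the recomputed quantile step, which repeats the deposited values and could not lose a call. The setting with 1 probe per gene left out all but the brightest probe of a gene. Counts of calls in this section are of members, and the share of all probes or pairs under each setting is not set beside them. The cause of the losses was not tested. Dim probes have compressed changes, and 1 array per treatment and time limits all of them.

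With no replicate block, that is without pairing the arrays of a time, 10 treatment calls, 0 calls of treatment by time and 0 probe pairs passed, with 12 and 8 of these last 2 at an unadjusted p under 0.05.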
